A study of Mus musculus with 47 samples.

Results

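Resting primary microglia carrying human APOE ε4 in place of mouse Apoe (E4) were compared with wild-type microglia (WT). The members are the 10 untreated libraries of these genotypes, 5 of E4 and 5 of WT, of 47 libraries in the series. They were chosen by the genotype and treatment in their labels, not by a measured value. The series also holds E3 cells, with human APOE ε3, and cells with 1 or no functional mouse Apoe allele (Het and KO), each with and without myelin. All cells were cultured from mouse forebrain in a medium with 10% serum. Untreated cells were left unchallenged for 24 h, and treated cells received myelin for 3 h and were collected at 24 h. Both alleles are humanized in E4 and E3 mice, which came from Taconic, whereas WT, Het and KO mice came from the Jackson Laboratory. In the comparison of E4 with WT, the APOE genotype and the vendor therefore cannot be told apart. The labels name C57BL/6 as the strain of every group and give no age, and they do not say whether replicates are separate animals, litters or wells. The tests below thus rest on variation among libraries that could be technical.

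Apolipoprotein E is a secreted lipid carrier. In the brain it is made mainly by astrocytes and, on activation, by microglia, and it delivers cholesterol and phospholipid to cells through lipoprotein receptors. Human APOE has common alleles that differ by single amino acids, and ε4 is the strongest common genetic risk factor for late-onset Alzheimer's disease. Microglia are the resident macrophages of the brain. In culture they commonly share the dish with some astrocytes and with fibroblast-like cells of the meninges and vessels.

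Levels are given as scaled TPM, TPM values (transcript abundances relative to a fixed library total) recalculated so that nuclear protein-coding genes add up to the same total in each library and then divided by a trimmed-mean library factor. A gene was called when its adjusted p was under 0.05 in limma (Benjamini-Hochberg adjustment over all 9536 coding genes tested), and log2 differences are E4 minus WT on the log2(scaled TPM + 1) scale. Libraries correlated at 0.980 to 0.991 within WT, at 0.970 to 0.991 within E4 and at 0.836 to 0.908 between the genotypes. Nuclear coding genes held 23.2% ± 2.54 (SD, n = 5) of all deposited TPM in WT and 12.1% ± 3.24 (SD, n = 5) in E4. The lowest WT library, at 20.5%, lay above the highest E4 library, at 16.1%, so this share and the genotype cannot be told apart. The 2-sided exact permutation p of 0.0079365 is the smallest that 5 against 5 libraries can give.

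Mouse Apoe was nearly absent from E4 cells. Its level was 57455, 65926, 61944, 47641 and 60626 scaled TPM in the 5 WT libraries and 143, 136, 154, 189 and 218 in the 5 E4 libraries. The log2 difference was -8.46 (SE 0.133, limma adjusted p = 2.74e-14), with an exact permutation p of 0.0079365. The level in E4 compared with 76.3 ± 7.70 scaled TPM in untreated KO libraries (SD, n = 5) and 104 ± 11.3 in untreated E3 libraries (SD, n = 4). The transcript of the human allele was not analysed here, and the source of the low level assigned to mouse Apoe in E4, E3 and KO was not tested. The mouse gene separated all 5 E4 libraries from all 5 WT libraries, as their labels state.

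The resting transcriptome of E4 differed from that of WT across most measured genes. Of 9536 genes, 6211 (65.1%) were called, 2378 (24.9%) of them higher in E4 and 3833 (40.2%) lower. With scaling to the coding total alone, 5891 were called and 2932 were higher and 2959 lower, and the median over all genes moved from -0.12 to -0.01. The direction of a small difference is therefore relative to the scaling. With the coding share as a covariate 3394 genes were called. A stricter rule, added after these counts were seen, also required a 2-fold difference: 878 genes (9.21%) were then higher and 595 (6.24%) lower. The 5 E4 values lay wholly above or below the 5 WT values in 4896 genes (51.3%). Counts of list members below are to be read against these shares. A gene under 5 scaled TPM in every library of a genotype was tested only if every library of the other reached 5. The filter then fixed its direction.

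Of the 12 genes with the greatest gain in E4, 2 belong to the list of astrocyte markers (Gfap and Slc1a3) and 1, Olig1, to that of the oligodendrocyte lineage. Gfap, the intermediate filament of astrocytes, stood at 34.0, 38.8, 40.6, 40.7 and 32.2 scaled TPM in WT and at 800, 729, 1020, 1326 and 1048 in E4. Every E4 library lay far above every WT library. The log2 difference was 4.66 (SE 0.140, limma adjusted p = 1.14e-11). Slc1a3, the glutamate transporter GLAST, stood at 5.54 to 9.59 in WT and at 150 to 265 in E4 (log2 difference 4.50). Mt3, a brain metallothionein, stood at 31.1 to 55.4 in WT and at 1295 to 2206 in E4 (log2 difference 5.17). The E4 libraries did not overlap the WT libraries in any of the 12 genes named for the largest gain, which the naming rule required. The others were Fxyd1, a regulator of the sodium pump, with a log2 difference of 5.48, Elobl with 4.70, the growth factor binding protein Igfbp2 with 4.54, and Mlc1, a membrane protein of astrocyte endfeet, with 4.40. Olig1, a transcription factor of the oligodendrocyte lineage, differed by 4.39 and the glutamine transporter Slc38a3 by 4.25. Ntrk2, the BDNF receptor, differed by 4.23, the channel protein Ttyh1 by 4.20 and the receptor Gpr37l1 by 4.18.

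Igf2, Mmp3, Dcn and Serpinb2 had the greatest loss after Apoe. Igf2, an insulin-like growth factor, stood at 103, 93.9, 94.4, 80.4 and 81.8 scaled TPM in WT and at 1.17, 1.67, 0.282, 0.180 and 0.116 in E4. All 5 E4 libraries were under 2 scaled TPM. The log2 difference was -5.86 (SE 0.218, limma adjusted p = 7.24e-11). Mmp3, the matrix metalloproteinase stromelysin, stood at 379 to 538 in WT and 7.58 to 14.4 in E4 (log2 difference -5.32). Dcn, the collagen-binding proteoglycan decorin, stood at 117 to 141 in WT and 2.56 to 5.27 in E4 (-4.84). The plasminogen activator inhibitor Serpinb2 stood at 104 to 129 in WT and 3.43 to 5.91 in E4 (-4.42), and Ccr1, a chemokine receptor of myeloid cells, at 17.3 to 25.2 and 0.574 to 1.16 (-3.59). No E4 library of these genes reached a WT library. The remaining genes were Apoc2, an apolipoprotein that activates lipoprotein lipase (-3.52), the smooth muscle actin Actg2 (-3.50), the EGF receptor ligand Ereg (-3.36), the lipocalin Apod (-3.33), the protease inhibitor Tfpi2 (-3.28) and Inhba, which encodes activin A (-3.21).

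**Figure D1:**
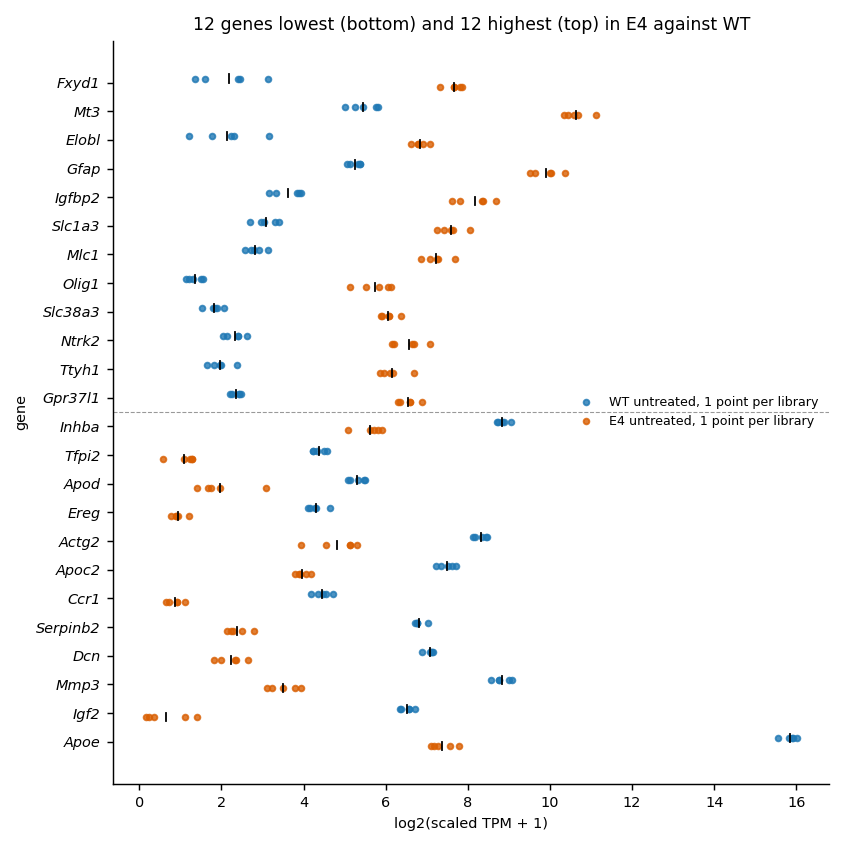
Level of the 12 genes with the largest loss (below the dashed line) and the 12 with the largest gain (above it) in E4, as log2(scaled TPM + 1) on the horizontal axis; each point is 1 of the 5 WT (blue) or 5 E4 (orange) untreated libraries and the black bar is the mean of the 5. The E4 and WT points do not overlap in any of the 24 genes, as the naming rule required, and Apoe lies furthest apart with a log2 difference of -8.46.

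The same contrast after myelin, in 10 other libraries, gave 4647 calls of 9535 genes tested (48.7%). All 24 of these genes were called in the same direction there. Gfap differed by 4.91 after myelin, Mt3 by 4.50, Igf2 by -5.95, Mmp3 by -5.64 and Dcn by -5.03. Of 9325 genes tested in both states, 6058 were called untreated and 4518 after myelin. The 3821 called in the same direction in both were 63.1% of the first set and 84.6% of the second, and 27 were called in opposite directions. Of the 1403 genes called with a 2-fold difference untreated, 1306 (93.1%) were called the same way after myelin.

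Markers of astrocytes, neurons, fibroblasts and microglia separated by cell type. Of 14 astrocyte markers tested, 13 rose in E4 and none fell, 12 of them at least 2-fold, with a median log2 difference of 3.66 against -0.12 for all genes. Clu, the apolipoprotein clusterin, stood at 27.1 to 35.5 scaled TPM in WT and at 435 to 702 in E4 (log2 difference 4.13). Aqp4, the astrocyte water channel, differed by 3.98, the glycolytic isozyme Aldoc by 3.94, the transcription factor Sox9 by 3.84 and the folate enzyme Aldh1l1 by 3.64. Gja1, the gap junction protein of astrocytes and fibroblasts, had 46.7 ± 3.57 in WT and 39.3 ± 9.77 in E4 (SD, n = 5 each) and was not called (adjusted p = 0.0876 in limma). Without E4 replicate 4, 1 astrocyte marker was called lower. The summed level of the whole astrocyte list was 967 to 1083 scaled TPM in WT and 3660 to 4646 in E4. The other 4 markers, Gjb6, Ntsr2, Id4 and Slc4a4, were below the level tested.

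Neuronal markers rose, and those of the oligodendrocyte lineage moved both ways. The 4 neuron markers tested of 14, Gap43, Stmn2, Tubb3 and Map2, all rose. A marker under 5 scaled TPM in WT could be tested only through E4, so this count is not independent of the filter. Gap43, a growth cone protein, moved from 6.33 ± 0.854 to 36.7 ± 1.70 scaled TPM (SD, n = 5 each). Summed neuron markers rose from 25.9 ± 2.90 to 112 ± 10.1. Of 5 oligodendrocyte lineage markers tested, Olig1 and Cnp, a myelin enzyme, rose, and Cspg4, also found on pericytes, fell by 0.62 on the log2 scale. Mbp, the myelin basic protein gene, differed by -0.02 and was not called. Summed oligodendrocyte lineage markers stood at 102 ± 8.18 scaled TPM in WT and 179 ± 20.2 in E4 (SD, n = 5 each), without overlap (log2 difference 0.80).

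Fibroblast and pericyte markers fell. Of 15 tested, 13 fell and none rose, 11 of them at least 2-fold, with a median of -1.48. Col3a1, a fibrillar collagen, stood at 132 ± 41.2 scaled TPM in WT and 18.3 ± 4.06 in E4 (SD, n = 5 each, log2 difference -2.76). Bgn, the proteoglycan biglycan, differed by -2.57, Col1a2 by -2.42, the PDGF receptor Pdgfrb by -2.01 and fibronectin, Fn1, by -1.13. Sparc differed by -0.11 and Thy1 by 0.41, and neither was called. The summed level was 4579 to 5650 in WT and 2167 to 3425 in E4, without overlap. Of 12 tested matrix metalloproteinases and inhibitors, 10 fell and 1 rose. Timp1, an inhibitor of these proteases, stood at 3076 to 4032 in WT and 298 to 566 in E4 (log2 difference -3.19), Mmp2 differed by -2.55 and Mmp13 by -2.55, whereas Timp2 rose by 0.67. Adjusted for the coding share, 14 fibroblast markers and 6 of the protease genes were lower.

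The microglial markers as a sum did not differ by the test. The 12 identity genes added up to 9624 ± 610 scaled TPM in WT and 10096 ± 657 in E4 (SD, n = 5 each, exact permutation p = 0.302), and all 12 were above the level tested. Scaled to the coding total alone, the same difference was 0.18 on the log2 scale with an exact permutation p of 0.0079365. The summed levels of the other marker lists all differed at the smallest p possible (adjusted over 9 values, 0.0089286). Single microglial genes moved both ways, 5 higher and 4 lower of 12. Itgam, the integrin CD11b, stood at 213 to 283 in WT and 60.4 to 116 in E4 (log2 difference -1.35). Ptprc, the leukocyte antigen CD45, also fell (-0.66), as did Csf1r, the receptor that microglia need to survive (-0.61), and the purinergic receptor P2ry12 (-0.68). Trem2, the lipid-sensing receptor, rose by 0.55 and Aif1 by 0.38. With the coding share in the model, Csf1r, Ptprc, P2ry12, Trem2 and Aif1 lost their calls, Aif1 with a changed sign (-0.16), and Itgam remained called. Cx3cr1 and Tmem119 rose by 0.20 and 0.22. Each lost its call without several single libraries, so that 2 identity genes were higher without E4 replicate 2 or 4 or WT replicate 1, 2 or 3, and 3 without E4 replicate 3 or 5 or WT replicate 4.

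**Figure D2:**
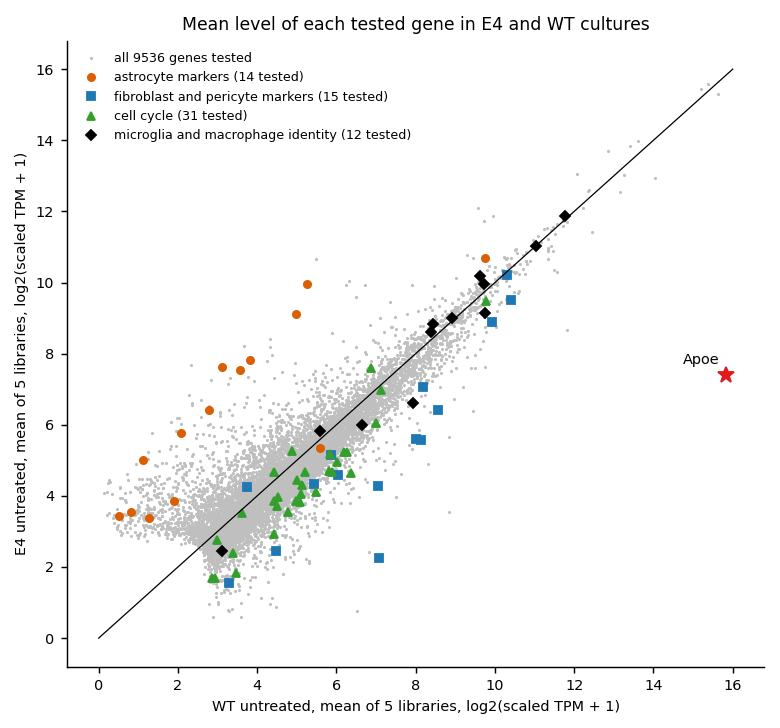
Mean level of each tested gene in the 5 WT libraries (horizontal) and the 5 E4 libraries (vertical), both as log2(scaled TPM + 1), with the line of equal level. Astrocyte markers (orange circles) lie above the line with a median log2 difference of 3.66, fibroblast and pericyte markers (blue squares) mostly below it with -1.48, cell cycle genes (green triangles) mostly below with -0.98, microglial identity genes (black diamonds) near it, and Apoe (star) far below.

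In these bulk cultures fewer cells of a type and less RNA per cell cannot be told apart. The marker sums that moved with genotype (no marker of these lists being at 0 in all 10 libraries) were those of astrocytes, neurons, oligodendrocytes, fibroblasts and pericytes, endothelial cells (52.4 ± 2.26 in WT and 24.3 ± 1.99 in E4) and border macrophages and monocytes (1949 ± 221 and 1269 ± 146; SD, n = 5 each). Their part in the changes of the pathway genes below was not tested. Of 10 border macrophage markers 5 were tested, and all 5 fell. A marker under 5 scaled TPM in E4 could be tested only through WT, so this count is not independent of the filter. Mrc1, the mannose receptor, stood at 26.0 to 31.1 in WT and 3.63 to 5.34 in E4 (log2 difference -2.45), and Pf4, a chemokine of perivascular macrophages, fell by 1.15. Of 3 endothelial markers tested of 9, Esam and Cdh5 fell and Flt1 rose.

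Proliferation genes were lower in E4. Of 31 cell cycle genes tested, 26 fell and 1, Stmn1, rose. The median was -0.98 and 15 fell at least 2-fold. Rrm2, the regulated subunit of ribonucleotide reductase, stood at 74.5 to 89.1 scaled TPM in WT and 20.5 to 28.2 in E4 (log2 difference -1.71, SE 0.0985, limma adjusted p = 4.41e-09). Ccnb1, the mitotic cyclin B1, differed by -1.39, the kinesin Kif20a by -1.49, the checkpoint kinase Bub1 by -1.62 and Mcm4, part of the replicative helicase, by -1.25. When the coding share entered the fit, 24 of 31 were lower. The number higher was 2 without E4 replicate 4 or without WT replicate 1, 2 or 5, and 3 with scaling to the coding total alone.

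Promoters of these genes commonly hold CCAAT, the box bound by the factor NF-Y. In the 250 bases before the start (RefSeq, build GRCm38.p6), CCAAT occurred on either strand in 22 of the 28 cell cycle genes with a promoter sequence, and in 18 of 22 that fell. It occurred in 37.5% of 27025 promoters of the same length. The motif was chosen after the calls were seen, and a match is no evidence of binding. The promoters of Rrm2 and Ccnb1 are shown 5′ to 3′ on the strand of the gene, with CCAAT in capitals, because they are among the genes that fell most in this list. Rrm2 lies at chr12:24708004-24708253 (plus strand) and its match starts 50 bases before the transcription start. Ccnb1 lies at chr13:100786487-100786736 (minus strand) with matches 99 and 67 bases before the start.
Rrm2: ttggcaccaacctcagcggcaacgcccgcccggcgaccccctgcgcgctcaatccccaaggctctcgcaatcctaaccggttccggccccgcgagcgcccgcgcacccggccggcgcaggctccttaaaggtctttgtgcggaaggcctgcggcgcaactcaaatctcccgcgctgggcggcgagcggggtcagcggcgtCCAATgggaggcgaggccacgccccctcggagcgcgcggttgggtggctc
Ccnb1: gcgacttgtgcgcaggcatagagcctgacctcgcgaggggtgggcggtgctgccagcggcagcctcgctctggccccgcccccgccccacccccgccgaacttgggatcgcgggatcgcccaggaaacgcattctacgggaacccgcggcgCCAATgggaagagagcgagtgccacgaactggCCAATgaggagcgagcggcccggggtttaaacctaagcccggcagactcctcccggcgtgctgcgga

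Inflammatory genes split. Of 27 cytokine, chemokine and NF-κB genes tested, 8 rose (29.6%) and 9 fell (33.3%), near the 24.9% and 40.2% of all genes. Il6, the acute phase cytokine, stood at 13.6 to 17.9 scaled TPM in WT and 0.793 to 1.82 in E4 (log2 difference -3.00). Ptgs2, the inducible cyclooxygenase, stood at 168 to 218 in WT and 14.6 to 30.7 in E4 (-3.02), and Ccl9 fell by 1.56. Il1a (-1.26) and its antagonist Il1rn (-1.02) fell. Lcn2, the iron-binding lipocalin-2, went the other way, with 58.7 to 92.9 in WT and 778 to 1149 in E4 (log2 difference 3.70). Tnf rose by 0.68, Ccl4 by 1.07 and Cxcl1 by 1.08. In the fit with the coding share as covariate, 6 were higher and 9 lower.

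Interferon-stimulated genes were mostly not called. Of 29 tested, 9 rose and 3 fell, with a median of 0.00. Cxcl10, the chemokine induced by interferon gamma, stood at 5.89 to 13.7 scaled TPM in WT and 44.3 to 57.1 in E4 (log2 difference 2.31, SE 0.166, limma adjusted p = 4.24e-08). Gbp2, a guanylate-binding protein of host defence, rose by 1.65 and Ifit3 by 1.27. Irf7 and Ifit1, genes often used to score an interferon response, differed by -0.08 and 0.11 and were not called. The count of members that rose was 5 without E4 replicate 2 (6 then fell) and likewise without WT replicate 3 or 4, and with the coding share as a covariate it was 6 with 0 lower. The core of the interferon-stimulated response element, GAAANNGAA, occurred on either strand in 14 of 24 members with a promoter and in 8.18% of all promoters. It occurred in 5 of 7 members that rose, in 6 of 11 not called and in 0 of 1 that fell. The promoters of Cxcl10 and Gbp2, the 2 members that rose most, are shown on the strand of the gene with the match in capitals. Cxcl10 lies at chr5:92348890-92349139 (minus strand), and its match starts 213 bases before the start. Gbp2 lies at chr3:142620413-142620662 (plus strand), and its match, 58 bases before the start, reads on the other strand.
Cxcl10: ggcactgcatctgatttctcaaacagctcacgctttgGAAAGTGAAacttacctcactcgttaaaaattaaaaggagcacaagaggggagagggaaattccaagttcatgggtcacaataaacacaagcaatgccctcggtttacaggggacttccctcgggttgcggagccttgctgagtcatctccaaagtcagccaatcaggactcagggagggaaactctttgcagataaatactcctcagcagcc
Gbp2: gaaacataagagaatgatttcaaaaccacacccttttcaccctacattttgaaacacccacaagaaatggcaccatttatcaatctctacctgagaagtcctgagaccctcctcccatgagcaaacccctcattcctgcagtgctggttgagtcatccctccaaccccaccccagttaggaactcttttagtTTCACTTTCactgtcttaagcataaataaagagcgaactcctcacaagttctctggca

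Antigen presentation genes rose more often than they fell. Of 18 genes of MHC class I presentation, 10 rose and 2 fell, none by 2-fold, with a median of 0.27. H2-K1, a class I heavy chain, rose by 0.43, the immunoproteasome subunit Psmb8 by 0.39 and the peptide transporter Tap2 by 0.52. Of 4 class II genes tested of 10, H2-Ab1 (1.90), H2-DMa (0.81) and the invariant chain Cd74 (0.53) rose. With the coding share as a covariate 4 class I genes were higher and 1 was lower, and Psmb8 and Cd74 were not called. Without WT replicate 4, and with scaling to the coding total alone, 1 class I gene was lower. The class I heavy chain genes, such as H2-K1, are close paralogues, so their reads may have been shared among them.

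Complement and Fc receptor genes were mostly lower. Of 15 complement genes, 8 fell and 3 rose. C5ar1, the receptor of the fragment C5a, stood at 795 to 947 scaled TPM in WT and 127 to 238 in E4 (log2 difference -2.16). This gene lies 3437 kb from Apoe on chromosome 7, and its log2 difference from WT was -2.34 in untreated E3 and -1.58 in untreated KO. Properdin, Cfp, a positive regulator of the alternative pathway, fell by 1.18. C4b (2.74), C3 (1.16) and the complement inhibitor Cd59a (1.62) rose, and the C1q subunit C1qa differed by 0.10 and was not called. Of 15 genes of Fc receptors and Syk signalling, 12 fell and 1 rose. Fcgr3, a low-affinity receptor for IgG, stood at 866 ± 106 scaled TPM in WT and 431 ± 46.4 in E4 (SD, n = 5 each). The receptors Fcgr2b (-0.95) and Fcgr4 (-0.89) and the kinase Lyn (-0.75) fell as well. Adjusted for the coding share, 5 of the 15 were lower and Lyn lost its call. Lat2, the member that rose, was not called without E4 replicate 3 or 5 or WT replicate 1, 2, 3 or 4, and 2 members rose without E4 replicate 4. With scaling to the coding total alone 6 complement genes and 3 of the Fc receptor list were higher.

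Most genes for clearing cell debris fell. Of 16 receptors and bridging proteins for cell debris, 11 fell and 3 rose, with a median of -0.60. The scavenger receptors Marco (-1.40), Msr1 (-1.12) and Cd36 (-1.10), the receptor kinase Mertk (-0.83) and the bridging protein Mfge8 (-0.63) fell. Gas6, the ligand of Mertk and Axl, rose by 1.37. Of 23 disease-associated microglia genes tested, 10 fell (43.5%, near the 40.2% of all genes), Apoe among them, and 5 rose. Spp1, osteopontin, fell from 16871 ± 754 scaled TPM to 7835 ± 733 (SD, n = 5 each), and Ccl6 fell by 1.57, whereas the cystatin Cst7 rose by 1.49. Of 18 homeostatic microglia genes, 8 rose and 5 fell, and of these Sall1 (1.10) and Cst3 (0.99) differed most upward. The number higher was 5 without E4 replicate 2 or 4 or WT replicate 1, 2 or 3. With the coding share in the model, 7 debris genes, 8 disease-associated and 1 homeostatic gene were lower. Scaled to the coding total alone, 10 disease-associated genes were higher and 9 lower.

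**Figure D3:**
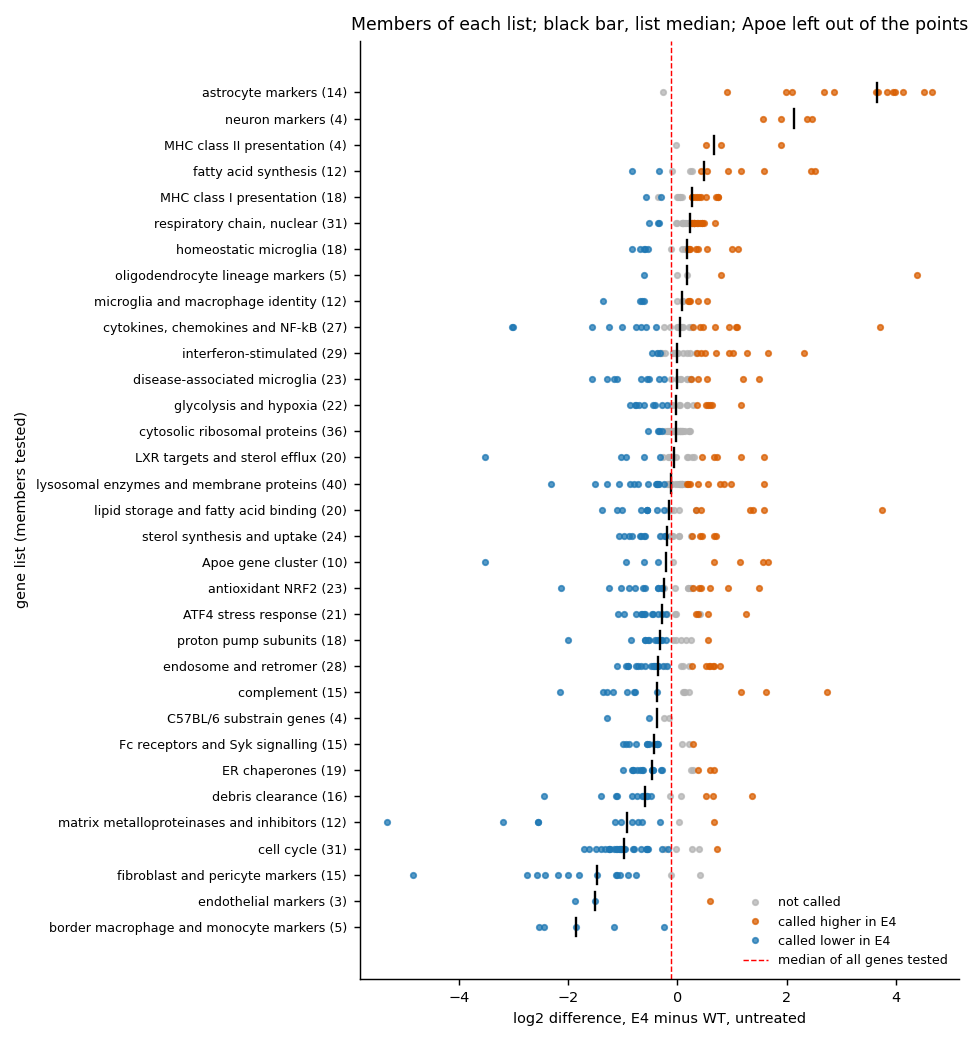
Log2 difference, E4 minus WT, of each tested member of 33 gene lists (rows, with the number tested); orange points were called higher, blue lower and grey not called, black bars are list medians and the red dashed line is the median of all genes, -0.12. Astrocyte and neuron markers lie furthest right, with medians of 3.66 and 2.13, and border macrophage, endothelial and fibroblast markers furthest left. Members that passed the filter only through E4 or only through WT are included.

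Lipid genes moved in several directions. Of 24 genes of sterol synthesis and uptake, 11 fell (45.8%, near the 40.2% of all genes) and 5 rose, with a median of -0.18. Dhcr7, which makes cholesterol in the last step, stood at 27.5 to 31.1 scaled TPM in WT and 11.1 to 15.8 in E4, without overlap (log2 difference -1.07, SE 0.106, limma adjusted p = 1.26e-06). Mvk and Scap rose by 0.67 and 0.71. When the coding share entered the fit, 5 sterol genes were lower and 5 higher. The sterol regulatory element, TCACNCCAC, occurred on either strand in 1 of 18 sterol genes with a promoter, a gene not called, and in 1.22% of all promoters. Of 20 liver X receptor targets and efflux genes, 5 rose and 5 fell. Abca1, the transporter that loads lipid onto apolipoprotein E, fell by 0.61 and the receptor gene Nr1h3 rose by 0.72. In this list 9 were higher and 4 lower with scaling to the coding total alone, and 4 higher and 3 lower with the covariate.

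Fatty acid synthesis genes rose in the majority, 7 of 12 with 2 lower and a median of 0.49. Fads2, a fatty acid desaturase, stood at 27.2 to 33.1 scaled TPM in WT and 115 to 230 in E4 (log2 difference 2.44). Thrsp, an activator of lipogenesis, differed by 2.51, and the desaturases Scd1 and Scd2 by 1.59 and 1.16. Of 20 lipid storage and fatty acid binding genes, 6 rose (30%) and 9 fell (45%), near the shares of all genes. Fabp7, a fatty acid binding protein known in glia, stood at 62.0 to 98.3 in WT and at 801 to 1169 in E4 (log2 difference 3.73). Acsl4, which activates polyunsaturated fatty acids (-1.38), and Soat1, the enzyme that esterifies cholesterol for storage (-1.01), fell. Mgll, a monoglyceride lipase, rose by 1.39. In the fit with the coding share as covariate, 5 storage genes were higher and 5 lower.

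Lysosomal genes split, while the proton pump and endosome lists were mostly lower. Of 40 lysosomal genes, 14 fell (35%) and 9 rose (22.5%), near the 40.2% and 24.9% of all genes. Their median was -0.11, against -0.12 for all genes. The cathepsins Ctsk (-2.31), Ctsc (-1.51) and Ctsl (-1.29) fell. Ctsl stood at 2864 to 3337 scaled TPM in WT and 981 to 1517 in E4. Naglu, a heparan sulfate hydrolase, rose by 1.59, and Lamp1 by 0.97. Of 18 proton pump genes 12 fell and 1 rose, and Atp6v0d2, a subunit of macrophages and osteoclasts, stood at 27.4 ± 2.80 in WT and 6.13 ± 0.84 in E4 (SD, n = 5 each; log2 difference -1.998). Of 28 tested entries for endosome and retromer genes, with Hgs under 2 identifiers, 17 fell and 7 rose. The retromer subunits Vps26a (-0.93) and Vps35 (-0.90), the sorting nexin Snx2 (-0.90) and the clathrin adaptor Picalm (-0.59) fell. With the coding share as a covariate the numbers lower were 5 lysosomal, 4 proton pump and 6 endosome genes, and Atp6v1b2, Atp6ap1 and Atp6ap2 lost their calls. With scaling to the coding total alone 13 lysosomal genes were higher and 10 lower, and 4 proton pump genes were higher. The number of proton pump genes higher was 3 without E4 replicate 4 and 2 without WT replicate 3. The E-box of lysosomal genes, TCACGTGA, occurred in 4 of 32 lysosomal and 1 of 12 proton pump promoters, and in 0.907% of all promoters.

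For part of the lysosomal genes the E4-WT difference was not the same after myelin. A test of the genotype by myelin interaction called 316 of 10021 genes (3.15%), 227 with a higher and 89 with a lower E4-WT difference after myelin. Of 40 lysosomal genes 19 were called, and of 18 proton pump genes 8. Nuclear coding genes held 19.2% ± 4.43 of TPM in WT and 18.6% ± 3.39 in E4 after myelin (SD, n = 5 each). Untreated, their shares were 23.2% and 12.1%. The interaction was not fitted with the coding share as a covariate, so the part of this share in these calls was not tested. Atp6v0d2 differed by -1.998 untreated and -0.50 after myelin (interaction 1.49, limma adjusted p = 0.00019). Ctsl differed by -1.29 and -0.63 (interaction 0.66) and Cd68, a lysosomal membrane protein of macrophages, by -0.01 and 0.63 (interaction 0.63). The total called ranged from 139 without WT untreated replicate 5 to 542 without WT myelin replicate 2. It was 179 with scaling to the coding total alone and 697 with the replicate number as a block.

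Among stress genes, the chaperones of the endoplasmic reticulum had the highest share that fell. Of 19, 14 fell (73.7%, against 40.2% of all genes) and 3 rose, with a median of -0.47, and Hsp90b1 (-0.84), Canx (-0.82) and Pdia6 (-0.81) fell. Of 21 genes of the ATF4 stress response, 12 fell (57.1%) and 4 rose, and Phgdh (-1.08) and Asns (-0.98), enzymes of serine and asparagine synthesis, fell. Of 23 NRF2 antioxidant genes, 11 fell (47.8%) and 6 rose (26.1%), near the shares of all genes. Nqo1, a quinone reductase, stood at 140 to 209 scaled TPM in WT and 31.8 to 41.2 in E4 (log2 difference -2.13), the peroxiredoxin Prdx1 fell by 1.03 and Prdx6 rose by 1.48. Of 22 glycolysis and hypoxia genes, 9 fell (40.9%) and 6 rose (27.3%), also near those shares, with Ldha, lactate dehydrogenase A, lower by a log2 difference of -0.75. Adjusted for the coding share, 5 chaperones, 8 ATF4, 8 NRF2 and 5 glycolysis genes were lower, and Hspa5 and Bnip3 lost their calls. Scaled to the coding total alone, 10 NRF2 genes were higher and 9 lower. Without WT replicate 1, 5 chaperones were higher.

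Respiratory chain and ribosomal genes depended on the model. Of 31 nuclear respiratory chain genes, 13 rose and 3 fell with a median of 0.24, and none reached 2-fold. With the coding share in the model, 0 were higher and 8 lower, and Ndufs1 turned from -0.53 to 0.02. With scaling to the coding total alone, 26 were higher and 2 lower. Of 36 cytosolic ribosomal proteins 4 fell and none rose, with the covariate all 36 were lower, and without E4 replicate 1 the number lower was 15. Scaled to the coding total alone, 3 ribosomal genes were higher and 4 lower.

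The differences were set beside those of the other untreated genotypes, which share the WT libraries with the E4 comparison or the E4 libraries with the E3 comparison, so the values are descriptions. In all 12 of the genes with the largest gain, every E4 and E3 library lay above every WT, KO and Het library, as in 6.43% of the 9536 genes tested and 25.8% of those called higher. Gfap had a mean of 379 scaled TPM in E3 and 32.5 in KO, beside 985 in E4 and 37.3 in WT. Fxyd1 had 78.9 in E3 and 4.57 in KO, beside 204 in E4 and 4.02 in WT. The summed astrocyte markers were 2905 ± 257 in E3 (SD, n = 4) and 805 ± 32.9 in KO (SD, n = 5). The summed fibroblast and pericyte markers stood otherwise, at 5114 ± 522 in E3 (SD, n = 4) and 722 ± 517 in KO (SD, n = 5). They were 5292 ± 432 in WT and 2832 ± 449 in E4 (SD, n = 5 each). Single members did not all follow this sum. Bgn stood at 139 to 168 scaled TPM in E3 and 245 to 299 in WT. For Bgn and Col1a2 every WT library lay above every library of the other untreated genotypes, but not for Col3a1 and Dcn. E3 and E4 mice share their vendor and their humanized locus, which cannot be told apart.

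The WT libraries lay above those of each of the other 4 genotypes in 10.5% of all genes tested and in 26.2% of those called lower in E4. Of the 12 with the largest loss, the WT libraries lay above all other untreated libraries in 8, which included Mmp3, Serpinb2, Ccr1, Ereg and Inhba. Ereg had means of 18.9 scaled TPM in WT, 0.934 in E4, 2.12 in E3, 0.948 in KO and 0.949 in Het. Il6 had 16.2 in WT and 0.438 to 1.62 in the other genotypes. The 4 exceptions were Apoe and Apoc2, where Het libraries were also high, and Igf2 and Dcn, where KO replicate 5 stood at 104 and 157. The other 4 KO libraries had 5.09 to 7.74 scaled TPM of Dcn and 1.59 to 7.04 of Igf2. Among all 153 named genes, WT lay above every other genotype in 48, with cell cycle genes such as Rrm2 and clearance genes such as Mrc1 among them.

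**Figure D4:**
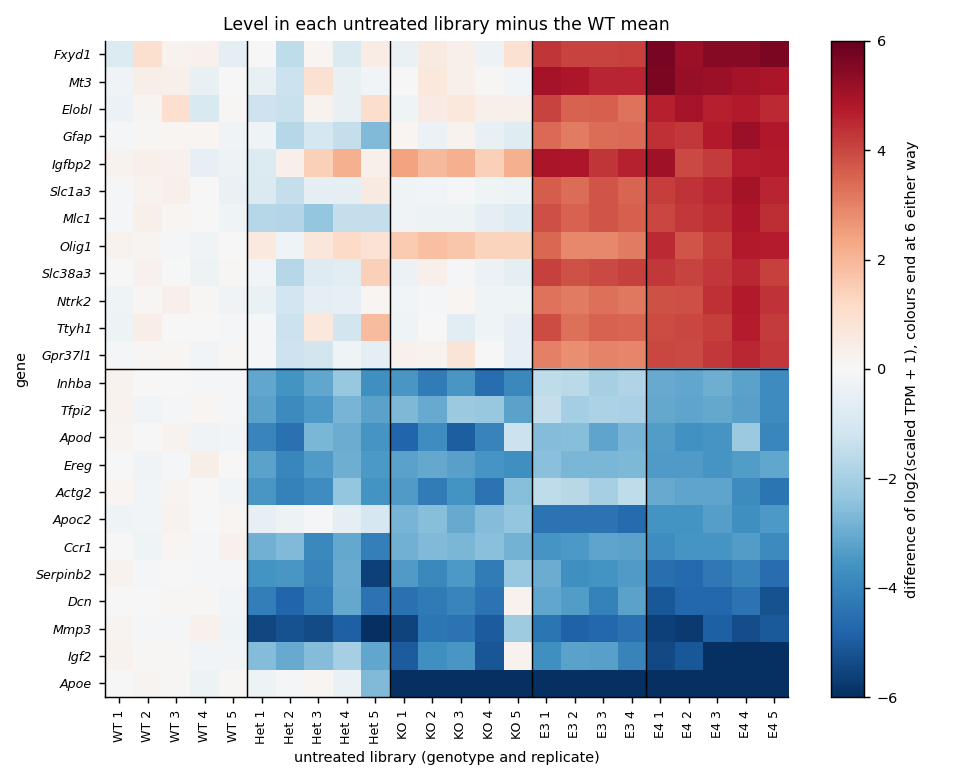
Level of the 24 genes in each of the 24 untreated libraries (columns, grouped by genotype) minus the mean of the 5 WT libraries, on the log2(scaled TPM + 1) scale; red is above WT and blue below, and colours end at 6 either way. The 12 upper genes are red in the 4 E3 and 5 E4 libraries, and the 12 lower genes are blue in most libraries other than WT, with KO replicate 5 near WT in Igf2 and Dcn.

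The E4 and E3 cultures also differed directly. E4 against E3 untreated called 1604 of 9498 genes (16.9%). Summed astrocyte markers were 4076 ± 440 in E4 and 2905 ± 257 in E3 (SD, n = 5 and 4). Those of fibroblasts and pericytes were 2832 ± 449 and 5114 ± 522. The part of such culture content in these calls was not tested, and it cannot be told apart from the allele. Gfap was higher in E4 than in E3 by 1.35 on the log2 scale, Fxyd1 by 1.35, Slc1a3 by 0.94 and Olig1 by 1.29 (limma adjusted p of 7.28e-05, 7.99e-06, 0.00072 and 0.00055). Igfbp2 differed by -0.12 and Slc38a3 by 0.25, neither called. Mmp3, Dcn, Serpinb2 and Inhba were lower in E4 than in E3, with log2 differences of -0.71, -1.41, -1.01 and -1.49. Apoc2 was higher in E4 than in E3 (0.96), as was the low level assigned to the mouse Apoe gene (0.67). Rrm2 was lower in E4 than in E3 (-1.30), and had means of 80.9 in WT, 61.0 in E3, 24.2 in E4 and 15.6 in KO.

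Near Apoe a larger share of genes differed by at least 2-fold than elsewhere in the genome. Apoe lies at chr7:19696109-19699188 (mm10, minus strand). Of 29 tested genes within 1 Mb of it, 12 were higher and 8 lower and 9 (31%) differed at least 2-fold, against 15.3% of 8833 genes on other chromosomes and 16.5% of the other tested genes on chromosome 7 beyond 10 Mb. From 1 to 5 Mb the share was 29% of 31 genes and from 5 to 10 Mb 8.22% of 73. The median absolute log2 difference was 0.61 within 1 Mb and 0.41 on other chromosomes. No test was made of this pattern.

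Both directions occurred within the cluster. Tomm40, a mitochondrial import channel that adjoins Apoe, stood at 27.7 ± 12.2 scaled TPM in WT and 86.4 ± 22.9 in E4 (SD, n = 5 each, log2 difference 1.65, SE 0.250, limma adjusted p = 5.79e-05). Clasrp and Relb, a subunit of NF-κB, rose by 1.57 and 1.14. Apoc2 (-3.52), Apoc1 (-0.94), the adhesion molecule Nectin2 (-0.61) and the poliovirus receptor homologue Pvr (-1.37) fell. Gemin7 differed by -0.07 and was not called. In KO, Tomm40 had a mean of 86.0 and Relb of 53.2, beside 27.7 and 15.6 in WT, and Apoc1 and Apoc2 were lower in KO than in WT, with log2 differences of -1.96 and -2.66. Clasrp in every WT library was below every library of the other untreated genotypes.

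**Figure D5:**
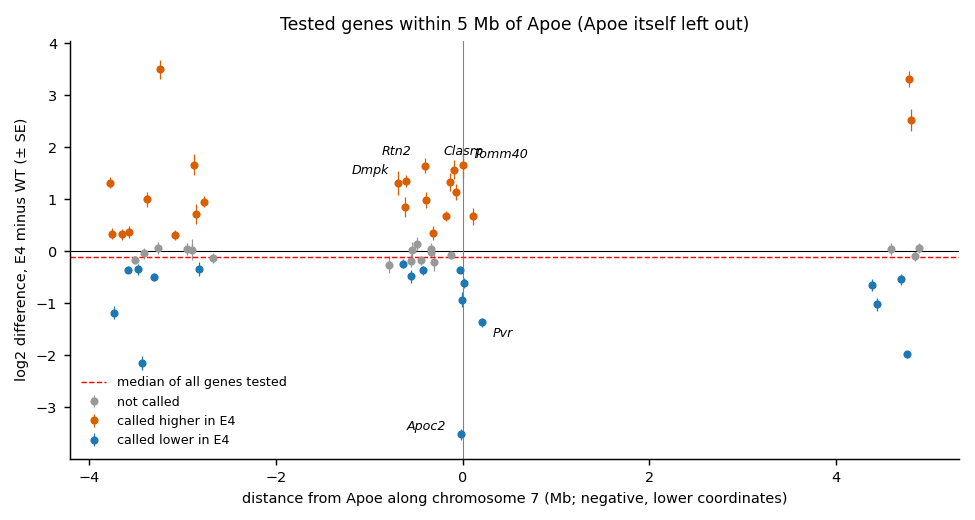
Log2 difference, E4 minus WT (± SE), of each tested gene against its distance from Apoe on chromosome 7, from 5 Mb before to 5 Mb after, leaving out Apoe; orange genes were called higher, blue lower, grey not called, and the red dashed line is the median of all genes. Apoc2 lies lowest, at -3.52. Tmem160 (3.49), Cadm4 (3.31) and Zfp428 (2.52), all more than 1 Mb from Apoe, lie highest. Within 1 Mb, Tomm40, Rtn2, Clasrp and Dmpk lie between 1.35 and 1.65.

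Genes that differ among C57BL/6 substrains were also compared. Of Nnt, Wdfy1, Entpd4 and Ide, 2 fell: Ide, an insulin-degrading protease, with 43.4 to 72.5 scaled TPM in WT and 17.6 to 27.8 in E4 (log2 difference -1.28), and Wdfy1 by 0.53. Nnt, the mitochondrial transhydrogenase truncated in C57BL/6J mice, differed by -0.24 and Entpd4 by -0.15, neither called. Ide had means of 21.3 in E3 and 27.6 in KO. When the coding share entered the fit, Wdfy1 lost its call.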

How the data were processed

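Polyadenylated RNA of cultured microglia was amplified with a low-input SMARTer kit and sequenced, per the labels' protocols. The authors deposited TPM values for 53697 genes in 47 libraries, each column adding up to 1000000. Salmon 0.13.1, limma 3.40.6 and mm10 are named in the submitters' processing notes, without a role, and the annotation release is not given in the sources used here. TPM hold no read depth, so depth is unknown and no counting interval or floor is given. Such relative values cannot show a change in the amount of RNA in each cell.

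Protein-coding genes without mitochondrially encoded ones were brought to the same sum of 1000000 in every library and divided by a factor from a trimmed mean of log ratios (trimmed by 30% for ratios and by 5% for levels, at either end), which limits the effect of losing the abundant Apoe transcript on other genes. Genes reaching 5 scaled TPM in 5 or more of the 10 libraries were tested with limma 3.58.1 (R 4.3.3, package data.table at version 1.17.8; empirical Bayes with trend, no library weights) on log2(scaled TPM + 1), two-sided, with Benjamini-Hochberg adjustment at 0.05. A pseudocount of 1 understates the change of low genes. The same fit was made after myelin, for the interaction and for E4 against E3. Single values were compared with 2-sided exact permutation tests. The scripts were tested on simulated data.

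The 12 genes named in each direction had the largest log2 difference among called genes without overlap between groups and with a mean of at least 10 scaled TPM in the higher group, leaving out predicted genes. Also named were up to 4 called members of each list with the smallest adjusted p, the identity genes, the Apoe cluster, the substrain genes and the 5 called genes nearest Apoe. Other genes named were chosen from the lists, and among the neighbours of Apoe, after their values were seen. Some genes that the rules name are not reported here. The comparison, the 33 lists and the alternatives were chosen with earlier results of these data known. Positions are from GENCODE on mm10, where all 9536 tested genes had one, and promoters from RefSeq on GRCm38.p6.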

Additional observations from a re-analysis of the deposited data

Results flagged for a closer look

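In 4 measures a library lay far from the other 4 of its group, by the gap to its nearest neighbour as a share of the group's range. Dcn was 117.24 scaled TPM in WT replicate 5 and 134.35 to 140.95 in the other WT libraries. Serpinb2 was 129.22 in WT replicate 1 and 104.4 to 108.12 in the others. Tfpi2 was 0.48891 in E4 replicate 5 and 1.13 to 1.44 in the others. The summed border macrophage and monocyte markers were 1566.7 in WT replicate 1 and 1970.8 to 2117.4 in the others. Chance alone marks about 1 in 20 groups in this way.

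Among the 24 genes with the largest differences, the E4-WT difference itself differed between myelin and untreated cultures for 2 in the interaction test of limma. For Apoe the difference was smaller by 1.1407 on the log2 scale after myelin (limma adjusted p = 0.0243), where E4 libraries had 309 to 747 scaled TPM assigned to the mouse gene. For Inhba it was -0.77237, a further loss (adjusted p = 0.028).

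Outside the coding genes, Gm23935, a non-coding RNA gene, held a mean of 85.971% of deposited TPM in E4, against 69.438% to 76.725% in the WT libraries.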

How the results depend on the processing

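Of the 147 named genes that were called, 2 changed sign under any alternative, Aif1 (to -0.16) and Ndufs1 (to 0.023), both with the coding share as a covariate, where 21 others lost their call and 1 gained it. Of the 6 named genes not called, 5 changed sign: C1qa (to -0.15), Entpd4 (0.38) and Nnt (0.37) with that covariate, Gemin7 (0.04) with scaling to the coding total alone, and Cd68 there (0.11) and under 5 others. The coding share as a covariate leaves 3394 genes called, 1460 higher and 1934 lower, and since the shares of E4 and WT do not overlap it cannot be told apart from genotype. A filter at 20 scaled TPM tests fewer genes and gave 3679 calls, 1230 higher and 2449 lower, with 755 at least 2-fold apart, against 1473. A pseudocount of 5, which shrinks folds, gave 952 of these. Without a filter 4249 genes were higher. The fit on 47 libraries called 4727, that without Het groups 6345, and library weights 6501 (10 libraries) or 6609 (47 libraries). Leaving out 1 library gave 5865 (without WT replicate 4) to 6201 calls. With the replicate block 6112 genes were called untreated, 4782 after myelin and 697 in the interaction. Deviations of same-numbered E4 and WT untreated libraries correlated at -0.05 to 0.10, none best with its own number. Those of same-numbered untreated and myelin libraries of a genotype correlated at -0.09 to 0.54, over 0.1 in 4 of 10 pairs and best with the own number in 1, so the libraries were treated as unpaired. The interaction gave 179 calls with scaling to the coding total alone and 139 to 542 without 1 library. The identity sum moved to 0.18 with scaling to the coding total alone (exact permutation p = 0.0079365), the cause not tested. All summed marker differences kept their direction under leave-one-out. TPM give no depth, so how far it limits low genes is unknown.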
